A study of Mus musculus with 9 samples.

Results

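The 9 genes described here make up the R-spondin branch of canonical WNT signalling: the receptors Lgr4, Lgr5 and Lgr6, the secreted ligands Rspo1, Rspo2, Rspo3 and Rspo4, and the membrane ubiquitin ligases Znrf3 and Rnf43. They were taken by gene symbol from the 46517 gene rows of the deposited tables, and each symbol matched 1 row. The rule uses no measured value. All 9 passed the filter on low counts that was applied to every gene, and Rspo2 was the member nearest to it, since 8 of the 9 libraries were above its cutoff of 0.197 CPM, that is, counts per 1000000 counts of the library.

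WNT proteins bind Frizzled receptors together with the co-receptors LRP5 and LRP6, and this stabilises beta-catenin. ZNRF3 and RNF43 tag Frizzled and LRP6 for removal from the cell surface, and both genes are themselves targets of the pathway, which makes them negative feedback. An R-spondin binds an LGR receptor and a ligase at the same time and draws the ligase away from the surface, so that Frizzled stays there and the response to WNT is stronger. In the hair follicle Lgr5 is known for its expression in the lower bulge and the lower outer root sheath, Lgr6 for the isthmus of the upper follicle, and R-spondins as products of the dermal papilla, the mesenchymal cluster at the base of the hair bulb.

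RNA was sequenced in bulk from 4 sorted populations of mouse back skin, taken on postnatal day 30 from follicles in the growth stage that the labels call Anagen-VI. They are suprabasal hair bulb cells (suprabasal HB, 2 libraries), basal hair bulb cells (basal HB, 2 libraries), outer root sheath cells (ORS, 2 libraries) and hair follicle stem cells (HFSC, 3 libraries). All share the strain label Lhx2-GFP (CD1), the sex label Mixed and a sort on P-cadherin, CD34, Sca-1, GFP and the integrins α6 and β1. The extraction protocol gives K14-H2BGFP instead, a line in which the keratin 14 promoter drives nuclear GFP. Gates, the number of mice pooled and the origin of the replicates are not stated, so a p-value measures only the spread between these libraries.

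Total counts were 25098237 to 88596741 a library, and the HFSC libraries were the shallowest, at 25098237 to 29902799. The libraries also differed in sex-linked RNA. Ddx3y, a Y-linked gene, had 0 to 1.25 expected counts in the 3 HFSC libraries and at least 4299.89 in each of the other 6. Xist, which is made from the inactive X chromosome, was at 1.11 normalised CPM in ORS replicate 1 and 1459 in ORS replicate 2, and at 1.05 to 1.23 in both suprabasal HB libraries. In the basal HB libraries Xist was at 359 and 298 normalised CPM. In comparisons with HFSC, and in suprabasal HB against basal HB, population and sex therefore cannot be told apart. Since the ORS libraries differed from each other in Xist, sex is not balanced in basal HB or suprabasal HB against ORS either. The labels state no preparation batch, so sample preparation cannot be told apart from population in any comparison. Of markers for the labelled types, Cd34 and Krt15 were highest in HFSC (205 to 256 and 2686 to 3243 TPM), the matrix gene Msx2 was at 243 to 255 TPM in basal HB, and the hair shaft keratin Krt35 was at 1362 to 1406 TPM in suprabasal HB. Other genes of these marker lists had another order. Of the hair matrix list, Wnt10b was highest in suprabasal HB, at 41.9 to 49.3 TPM against 29.6 to 30.6 in basal HB. Lef1 and Shh overlapped between the hair bulb populations, whereas Dlx3 and Hoxc13 were highest in basal HB, like Msx2. Of the bulge stem cell list, Lhx2 was highest in ORS, at 2060 to 2382 TPM against 710 to 859 in HFSC, and Nfatc1 was at 2.15 to 2.79 TPM in the hair bulb populations against 0.99 to 1.64 in HFSC. Of the hair shaft and inner root sheath list, Tchh was highest in basal HB, at 1304 to 1312 TPM against 158 to 182 in suprabasal HB, and Gata3 was highest in ORS, at 74.8 to 95.7 TPM against 26.7 to 55.6 in suprabasal HB. Suprabasal HB also held much melanocyte RNA: the 10 melanocyte markers summed to 11598 to 12829 TPM there, 2475 to 3085 in basal HB, 91.8 to 347 in ORS and 105 to 136 in HFSC. Of these, Gpnmb was higher in basal HB, at 615 to 658 TPM in suprabasal HB and 1702 to 1818 in basal HB, and without it the sums were 10982 to 12171 TPM in suprabasal HB, 773 to 1267 in basal HB, 52.7 to 260.5 in ORS and 63.6 to 100.3 in HFSC. The part of this RNA in the levels given here was not tested.

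Lgr5 was the most strongly graded of the receptors. It was at 2.89 and 1.62 TPM in suprabasal HB, 29.1 and 39.8 TPM in basal HB, 114 and 185 TPM in ORS, and 195, 169 and 179 TPM in HFSC. TPM is the deposited level per transcript length, scaled to 1000000 a library, so it can be compared between genes. Neither hair bulb population overlapped with the other or with ORS or HFSC, whereas an ORS library reached into the HFSC range of TPM. Normalised CPM is CPM after TMM scaling and is not scaled for transcript length. In normalised CPM the ORS libraries, at 265 and 422, did not overlap with HFSC, at 510 to 542. Suprabasal HB, at 6.07 ± 1.97 CPM (SD, n = 2), was 87.1-fold lower than HFSC, at 530.5 ± 18.2 CPM (SD, n = 3). The log2 fold change was -6.44 ± 0.34 SE (edgeR quasi-likelihood adjusted p = 1.88e-06). Between neighbours in this order, suprabasal HB was 12.9-fold lower than basal HB (log2 fold change -3.69 ± 0.31, edgeR adjusted p = 0.000112) and basal HB was 4.38-fold lower than ORS (-2.13 ± 0.28, edgeR adjusted p = 0.000789). ORS and HFSC did not differ past the threshold of 0.05 (-0.63 ± 0.25, edgeR adjusted p = 0.0763), and this difference passed it with DESeq2 (adjusted p = 0.033) and without ORS replicate 2 (edgeR adjusted p = 0.0265). In bulk samples, fewer cells of a type and less RNA per cell cannot be told apart, and this touches every level given here.

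Lgr6 was highest in ORS. Its levels were 7.49 and 4.04 TPM in suprabasal HB, 8.13 and 8.44 TPM in basal HB, 35.4 and 60.3 TPM in ORS, and 8.92, 7.94 and 10.1 TPM in HFSC. Both ORS libraries stood above the other 7, which lay between 4.04 and 10.1 TPM. The ORS level of 169 ± 58.1 CPM (SD, n = 2) was 4.17-fold that of HFSC, at 40.4 ± 4.91 CPM (SD, n = 3), with a log2 fold change of 2.06 ± 0.24 (edgeR adjusted p = 0.000282). Against ORS, Lgr6 was 5.97-fold lower in basal HB (edgeR adjusted p = 0.000303) and 7.05-fold lower in suprabasal HB (edgeR adjusted p = 0.000126). The next neighbours, basal HB against HFSC and suprabasal HB against basal HB, did not differ past the threshold (edgeR adjusted p = 0.113 and 0.548). Basal HB was called lower than HFSC in 1 of 18 alternatives. That was the fit of these 2 populations alone (log2 fold change -0.47, edgeR adjusted p = 0.0113). Suprabasal HB was called lower than HFSC by 0.76 on the log2 scale (edgeR adjusted p = 0.0312), but this call was lost in 7 of 18 alternative analyses, among them those without each HFSC replicate in turn (adjusted p of 0.0673 to 0.135) and without suprabasal HB replicate 2 (0.312).

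Lgr4, the most widely expressed receptor of the family, varied least among the receptors. It was at 36.6 and 32.2 TPM in suprabasal HB, 36.5 and 36.1 TPM in basal HB, 91.1 and 102 TPM in ORS, and 52.2, 51.7 and 56.2 TPM in HFSC. The ORS libraries were highest, HFSC libraries came next, and the hair bulb populations overlapped in TPM. ORS exceeded HFSC 1.40-fold (log2 fold change 0.49 ± 0.09, edgeR adjusted p = 0.00304), and suprabasal HB was 1.68-fold lower than HFSC (-0.75 ± 0.09, edgeR adjusted p = 0.000217). Suprabasal HB and basal HB did not differ past the threshold (0.21 ± 0.10, edgeR adjusted p = 0.16), and on the TPM scale this difference had the opposite sign, at -0.08.

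**Figure D1:**
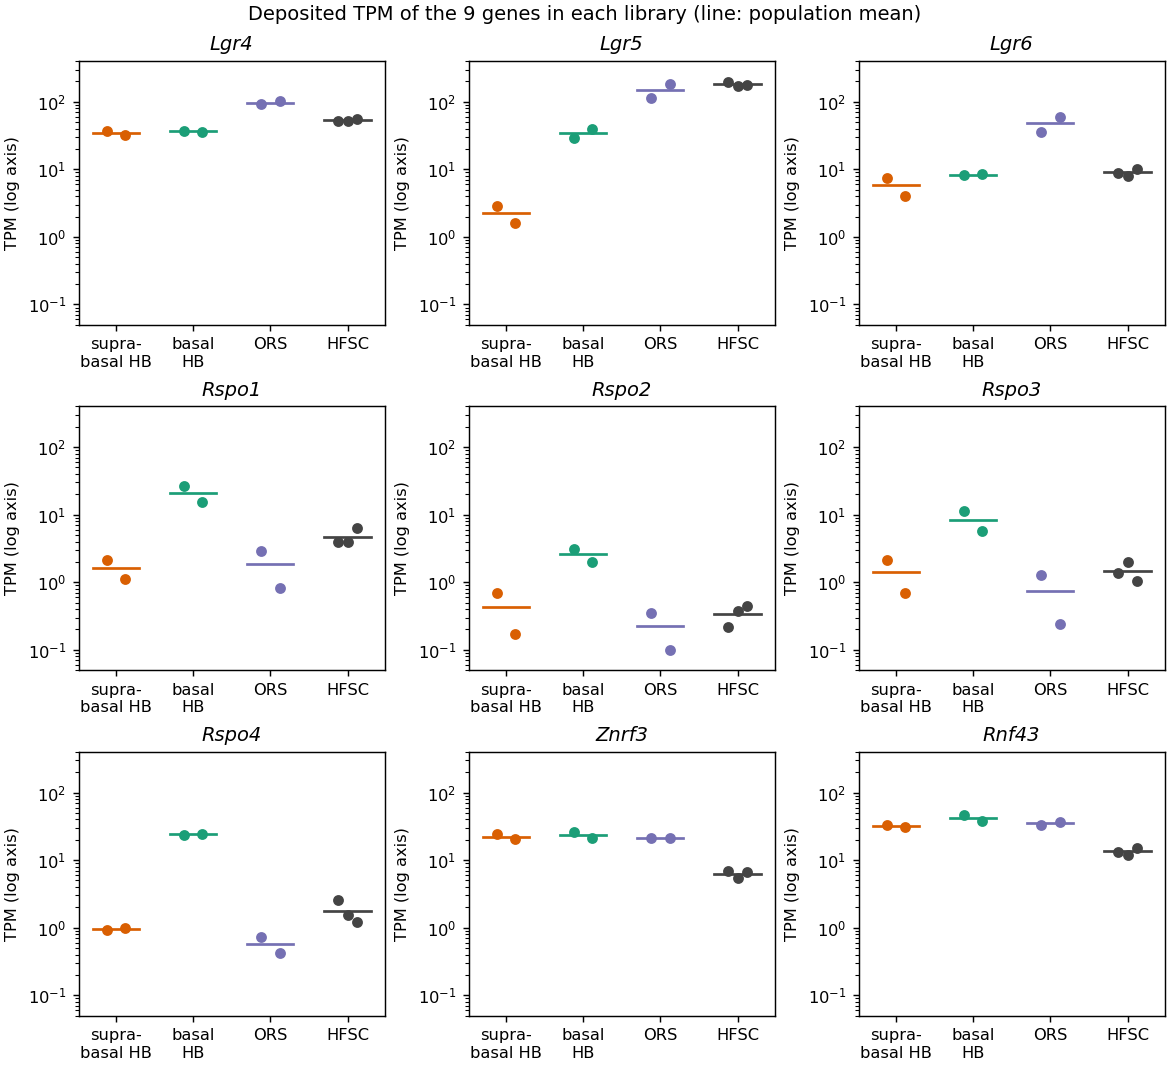
Deposited TPM (log axis) of each of the 9 genes in the suprabasal HB, basal HB, ORS and HFSC libraries. Points are libraries and lines are population means. Lgr5 lies between 1.62 and 2.89 TPM in suprabasal HB and between 169 and 195 TPM in HFSC, and all 4 R-spondins are highest in basal HB.

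Lgr4 and Lgr6 were both highest in ORS, and the bases just upstream of their starts are shown for that reason. Sequences are from RefSeq on GRCm38.p6, the patch release of mm10, on the strand of the gene. The Lgr4 stretch is chr2:109917397-109917646 (plus strand) and the Lgr6 stretch is chr1:135105277-135105526 (minus strand), and each ends at the base before the GENCODE M21 gene start. Capitals mark the CCAAT word or the GC box word GGGCGG on either strand.
Lgr4: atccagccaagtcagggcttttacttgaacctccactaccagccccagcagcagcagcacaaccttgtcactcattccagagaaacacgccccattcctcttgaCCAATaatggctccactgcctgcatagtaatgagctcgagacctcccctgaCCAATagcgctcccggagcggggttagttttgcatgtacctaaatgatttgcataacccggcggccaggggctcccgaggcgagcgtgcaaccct
Lgr6: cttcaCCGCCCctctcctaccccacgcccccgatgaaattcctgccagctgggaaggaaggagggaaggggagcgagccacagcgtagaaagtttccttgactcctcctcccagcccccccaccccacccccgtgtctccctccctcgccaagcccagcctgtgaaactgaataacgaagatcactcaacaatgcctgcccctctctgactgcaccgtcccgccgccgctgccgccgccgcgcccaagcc
The Lgr4 stretch held CCAAT at 146 to 142 and at 95 to 91 bases before the start, and no GC box. The Lgr6 stretch held the GC box word on the opposite strand at 245 to 240 bases before the start, and no CCAAT. Of 32851 RefSeq promoter stretches of the same 250 bases, 33.8% held CCAAT and 32.7% held GGGCGG. For TCF/LEF factors, CTTTGAA and CTTTGAT were searched on both strands. The same search covered the words CTTTGTA and CTTTGTT. None was in either stretch, and 14.8% of all promoters held at least 1.

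The receptors were mixed differently in each population. Lgr4, Lgr5 and Lgr6 together summed to 47.0 and 37.9 TPM in suprabasal HB, 73.7 and 84.3 TPM in basal HB, 241 and 347 TPM in ORS, and 256, 228 and 245 TPM in HFSC. Lgr5 made up 6.15% and 4.28% of that sum in suprabasal HB, 39.5% and 47.2% in basal HB, 47.5% and 53.2% in ORS, and 76.1%, 73.9% and 72.9% in HFSC. Lgr4 made up 77.9% and 85.1% in suprabasal HB, 49.5% and 42.8% in basal HB, 37.8% and 29.5% in ORS, and 20.4%, 22.6% and 22.9% in HFSC. The populations did not overlap in either share, though the nearest libraries for Lgr5, of basal HB and ORS, were at 47.2% and 47.5%. The Lgr6 share was lowest in HFSC, at 3.48% to 4.12%, against 10.01% to 17.4% in the other 6 libraries. These shares are given as a description, with no test.

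**Figure D2:**
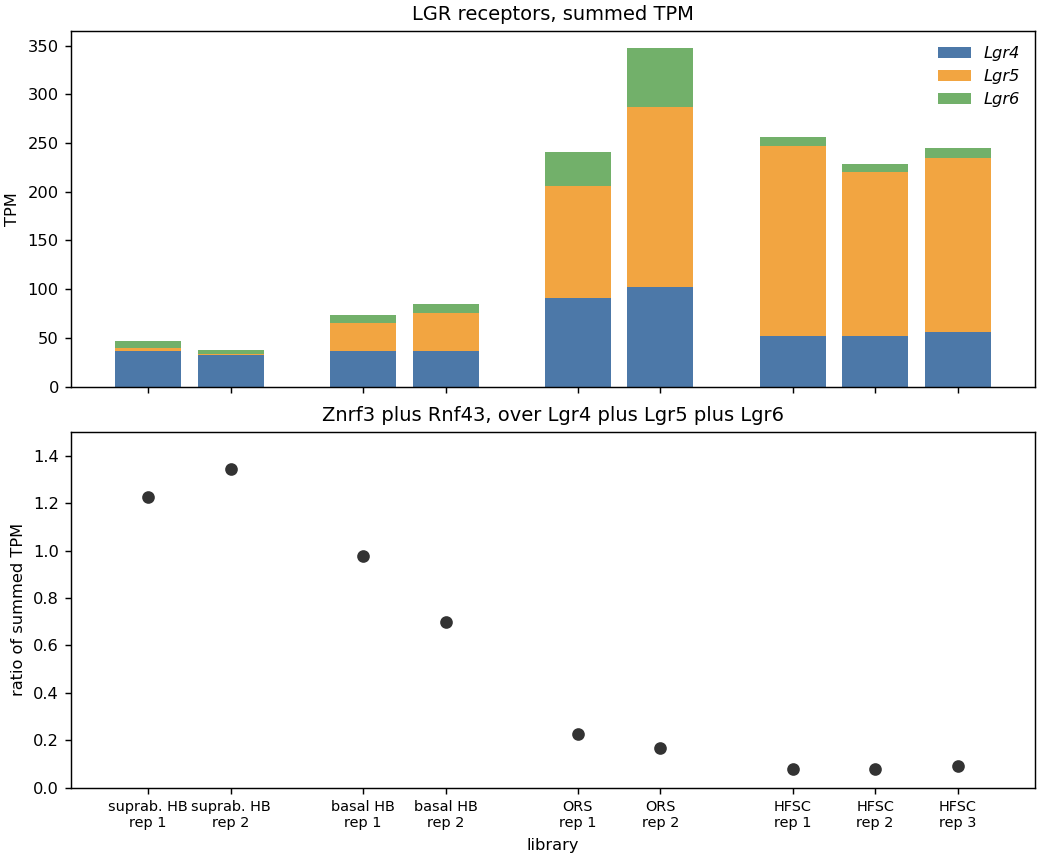
Upper panel, summed TPM of Lgr4, Lgr5 and Lgr6 in each library as stacked bars. Lower panel, the ratio of Znrf3 plus Rnf43 to the 3 receptors, in TPM. The ratio is 1.23 and 1.34 in suprabasal HB and 0.0763 to 0.0888 in HFSC.

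All 4 R-spondins were highest in basal HB, and Rspo4 and Rspo1 were the most abundant there. Rspo4, whose human counterpart is known for its part in nail formation, was at 0.93 and 1 TPM in suprabasal HB, 23.8 and 24.6 TPM in basal HB, 0.72 and 0.42 TPM in ORS, and 2.59, 1.55 and 1.23 TPM in HFSC. The 2 basal HB libraries stood far above the other 7. Basal HB, at 29.8 ± 2.76 CPM (SD, n = 2), exceeded ORS, at 0.728 ± 0.286 CPM (SD, n = 2), by 41.3-fold (log2 fold change 5.37 ± 0.39, edgeR adjusted p = 8.72e-05). It exceeded HFSC, at 2.87 ± 1.03 CPM (SD, n = 3), by 10.4-fold (3.37 ± 0.31, edgeR adjusted p = 4.82e-05), and suprabasal HB was 20.8-fold lower than basal HB (-4.38 ± 0.38, edgeR adjusted p = 0.000124). These 3 calls were kept in all 18 alternatives. ORS was also lower than HFSC (-1.99 ± 0.35, edgeR adjusted p = 0.0021), while the lower level in suprabasal HB than in HFSC (-1.003 ± 0.33, edgeR adjusted p = 0.0328) was lost in 9 of 18 alternatives, among them those without HFSC replicate 1 or 2 or without any of the hair bulb libraries (adjusted p of 0.0549 to 0.156). Suprabasal HB and ORS did not differ past the threshold (0.99 ± 0.37, edgeR adjusted p = 0.0752). This difference passed it in 3 of 18 alternatives, among them DESeq2 (adjusted p = 0.0305) and edgeR without HFSC replicate 1 (adjusted p = 0.0426).

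Rspo1 was at 2.17 and 1.10 TPM in suprabasal HB, 26.8 and 15.5 TPM in basal HB, 2.87 and 0.83 TPM in ORS, and 3.95, 3.91 and 6.32 TPM in HFSC. Both basal HB libraries were above the rest, though they differed from each other more than the Rspo4 pair did. Basal HB exceeded ORS 11.02-fold (log2 fold change 3.46 ± 0.58, edgeR adjusted p = 0.00235) and HFSC 4.08-fold (2.03 ± 0.48, edgeR adjusted p = 0.00792), and suprabasal HB was 10.5-fold lower than basal HB (-3.39 ± 0.58, edgeR adjusted p = 0.00339). The call against HFSC was lost without basal HB replicate 1 (adjusted p = 0.0705). Neither suprabasal HB (edgeR adjusted p = 0.0583) nor ORS (0.0557) differed from HFSC past the threshold, and suprabasal HB did not differ from ORS past it (0.949). Suprabasal HB against HFSC passed the threshold in 7 of the 18 alternatives, with adjusted p-values between 0.00612, with either ORS library left out, and 0.0437. ORS against HFSC passed it in 4 of them, at 0.00255 without ORS replicate 1, 0.0148 with DESeq2, 0.0336 with no filter on low counts and 0.0471 with a replicate block.

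Rspo3, which is known in other tissues as a stromal ligand for LGR receptors, was at 2.14 and 0.70 TPM in suprabasal HB, 11.3 and 5.70 TPM in basal HB, 1.26 and 0.24 TPM in ORS, and 1.35, 2 and 1.06 TPM in HFSC. Rspo2, a gene tied to coat type in dogs, was at 0.69 and 0.17 TPM in suprabasal HB, 3.15 and 2.02 TPM in basal HB, 0.35 and 0.10 TPM in ORS, and 0.22, 0.37 and 0.44 TPM in HFSC. For both genes the basal HB libraries did not overlap with any other, and the other 7 lay between 0.24 and 2.14 TPM for Rspo3 and between 0.10 and 0.69 TPM for Rspo2. Rspo2 was 11.1-fold higher in basal HB than in ORS (3.47 ± 0.70, edgeR adjusted p = 0.00563) and Rspo3 10.8-fold (3.44 ± 0.77, edgeR adjusted p = 0.00942). Against HFSC they were 5.70-fold (edgeR adjusted p = 0.00831) and 4.30-fold (edgeR adjusted p = 0.025) higher in basal HB, and suprabasal HB was 5.10-fold (edgeR adjusted p = 0.0291) and 5.01-fold (edgeR adjusted p = 0.0446) lower than basal HB. Single libraries decided several of these calls. Without basal HB replicate 1 the adjusted p was 0.0588 for Rspo3 against ORS, 0.057 for Rspo2 and 0.163 for Rspo3 against HFSC. For suprabasal HB against basal HB it was 0.071 to 0.145 for Rspo2 without either basal HB replicate or suprabasal HB replicate 2. For Rspo3 in that comparison, leaving out either basal HB replicate, suprabasal HB replicate 2 or any HFSC replicate gave 0.0535 to 0.22. Rspo3 against HFSC was also lost without HFSC replicate 1 or 3 (adjusted p = 0.0638 and 0.067). Among suprabasal HB, ORS and HFSC neither gene differed past the threshold (edgeR adjusted p of 0.162 to 0.853), except that without ORS replicate 1 Rspo3 was lower in ORS than in HFSC (0.0165) and higher in suprabasal HB than in ORS (0.0254).

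Rspo1 and Rspo4, the more abundant ligands in basal HB, are shown upstream of their starts in the same way, since they were high in the same libraries. The Rspo1 stretch is chr4:124986180-124986429 (plus strand) and the Rspo4 stretch is chr2:151842677-151842926 (plus strand), again ending at the base before the gene start, with capitals for the same words.
Rspo1: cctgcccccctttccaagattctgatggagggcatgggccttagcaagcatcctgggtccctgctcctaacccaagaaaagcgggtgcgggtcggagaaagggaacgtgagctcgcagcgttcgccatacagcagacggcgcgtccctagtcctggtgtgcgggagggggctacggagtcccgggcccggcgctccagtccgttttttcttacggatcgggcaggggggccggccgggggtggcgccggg
Rspo4: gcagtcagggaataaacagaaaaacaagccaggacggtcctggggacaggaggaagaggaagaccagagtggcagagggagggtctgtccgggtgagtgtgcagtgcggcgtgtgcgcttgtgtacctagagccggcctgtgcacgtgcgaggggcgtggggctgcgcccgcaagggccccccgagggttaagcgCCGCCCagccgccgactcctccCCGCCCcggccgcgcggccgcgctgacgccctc
The Rspo4 stretch held the GC box word on the opposite strand at 55 to 50 and at 33 to 28 bases before the start. The Rspo1 stretch held neither that word nor CCAAT, and none of the 4 stretches held a TCF/LEF word or TATAAA, which 12.4% of all promoters held. Both were rich in CG dinucleotides, with 22 for Rspo1 and 24 for Rspo4 against a median of 6 over all promoters, and the Lgr6 and Lgr4 stretches held 16 and 10.

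Markers of dermal cells were also higher in basal HB than in ORS. Of 16 listed dermal papilla and fibroblast genes, 11 were called higher and 1 lower in basal HB than in ORS (median log2 fold change 2.52, against -0.04 over all genes tested), 8 higher and 3 lower in basal HB than in HFSC (median 1.28), and 2 higher and 7 lower in suprabasal HB than in basal HB (median -0.83). In suprabasal HB against ORS, 7 were called higher and 0 lower (median 1.22). There edgeR with all libraries called no R-spondin. Their log2 fold changes were 0.07 ± 0.56, 1.12 ± 0.69, 1.11 ± 0.74 and 0.99 ± 0.37 for Rspo1 to Rspo4. In the other comparisons, 1 was called higher and 8 lower in ORS than in HFSC (median -1.18), and 2 higher and 3 lower in suprabasal HB than in HFSC (median -0.02). Over all genes tested, 30.5% were called in either direction in basal HB against ORS, 48.9% in basal HB against HFSC and 27.9% in suprabasal HB against basal HB. The share was 29.4% in suprabasal HB against ORS, 41.9% in ORS against HFSC and 51.5% in suprabasal HB against HFSC. Corin, a protease of the dermal papilla, was at 1.71 to 4.22 TPM in suprabasal HB, 30.5 to 37.1 in basal HB, 0.97 to 2.73 in ORS and 4.55 to 6.10 in HFSC. Hhip, an inhibitor of hedgehog ligands, was at 0.80 to 3.22 TPM in suprabasal HB, 21.1 to 29.9 in basal HB, 0.46 to 1.60 in ORS and 1.64 to 2.08 in HFSC. The summed level of the whole list, in which collagen, Dcn and Sparc transcripts are the most abundant, did not follow this order. It was 2219 and 1059 TPM in suprabasal HB, 1652 and 1402 in basal HB, 1124 and 702 in ORS, and 1112 to 1748 in HFSC. The dermal papilla gene Sox2 was listed at 0 in 1 HFSC library and was at most 1.5 TPM anywhere. Of the 8 endothelial and mural genes, Myh11 and Rgs5 were highest in basal HB, at 108 to 116 and 107 to 117 TPM, against at most 6.28 and 13.1 TPM in the other populations. Acta2 and Tek were highest in HFSC: Acta2 was at 17.4 to 32.7 TPM in suprabasal HB, 570 to 607 in basal HB, 223 to 249 in ORS and 658 to 1179 in HFSC. The 8 genes summed to 35.6 to 53.1 TPM in suprabasal HB, 811 to 848 in basal HB, 249 to 287 in ORS and 690 to 1225 in HFSC. The part of these cells in the R-spondin levels was not tested.

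The replicates of 1 population differed in the R-spondins, and so did marker lists. Lgr5 and Lgr6 differed too. In normalised CPM their replicate 1 over replicate 2 was 1.60 and 1.61 in suprabasal HB, and 0.629 and 0.608 in ORS. In basal HB it was 0.672 and 0.895, and in HFSC 0.996 and 1.03. For Lgr4, Znrf3 and Rnf43 this ratio lay between 0.904 and 1.13 in every population. In ORS, replicate 1 over replicate 2 was 3.99 for Rspo1, 3.55 for Rspo2, 5.43 for Rspo3 and 1.77 for Rspo4 in normalised CPM. In the same pair all 15 dermal genes with enough counts were above 1 (median 1.95), as were all 10 melanocyte genes (median 5.72). So were all 5 immune genes (median 1.55) and 7 of 8 endothelial and mural genes (1.34). Medians were 1.83 for hair shaft and inner root sheath, 1.41 for hair matrix, 0.909 for follicle epithelium and 0.845 for bulge stem cell genes. In suprabasal HB the ratios were 1.45, 3.52, 2.68 and 0.807 for Rspo1 to Rspo4. The dermal median was 2.15, with 14 of 15 genes above 1, and the melanocyte median was 0.997. The bulge stem cell median was 1.43, with 5 of 6 genes above 1, the immune median was 0.615, and the other 4 list medians lay between 0.933 and 1.06. In basal HB, where the R-spondins were highest, the ratios were 1.60, 1.41, 1.79 and 0.877, beside a dermal median of 1.12 and a melanocyte median of 1.46. There 13 of 16 dermal and 9 of 10 melanocyte genes were above 1, and the other list medians lay between 0.841 and 1.07. In HFSC they were 1.11, 0.532, 0.609 and 1.501, beside a dermal median of 1.28 and a melanocyte median of 0.597. Here 14 of 15 dermal genes and 1 of 10 melanocyte genes were above 1. The immune median was 1.56, the endothelial and mural median was 1.38, and the other list medians lay between 0.746 and 1.07. HFSC replicate 3 is not part of these ratios. What lies behind the replicate differences was not tested.

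**Figure D3:**
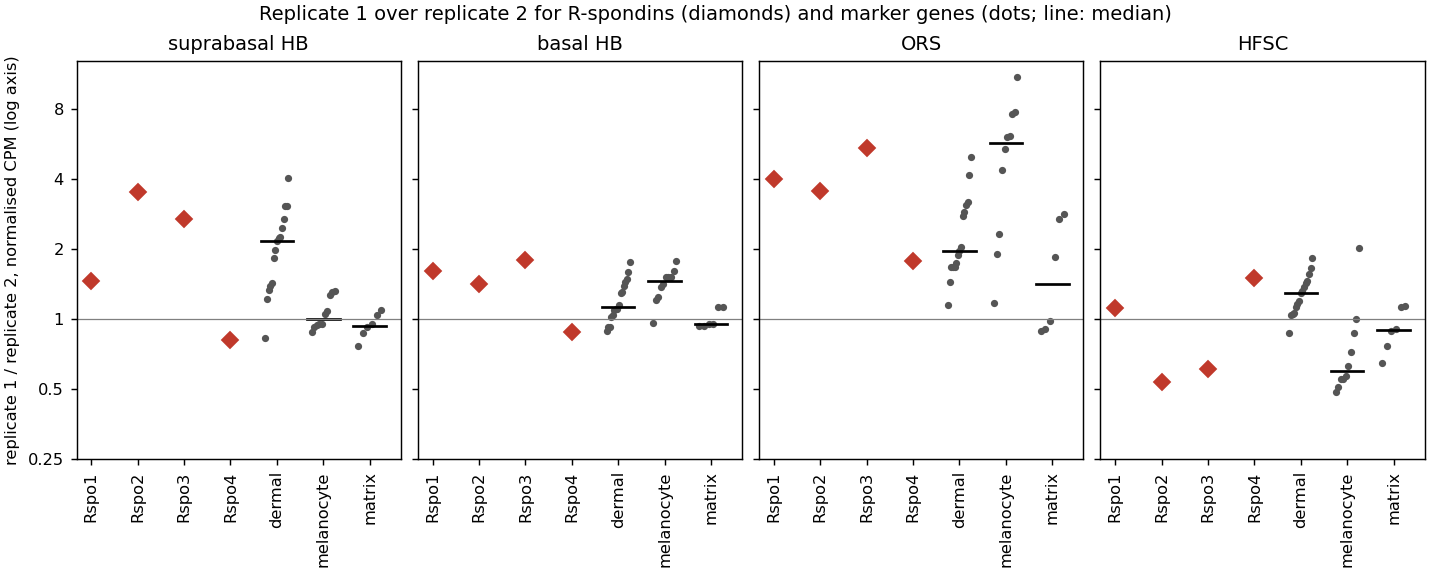
Replicate 1 over replicate 2 in normalised CPM (log axis) within each population, for the R-spondins (diamonds) and for single genes of 3 marker lists (dots, with the list median as a line). In ORS all 4 R-spondins lie between 1.77 and 5.43 and the melanocyte median is 5.72.

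The ligases Znrf3 and Rnf43 were lowest in HFSC and closer together in the other populations. Znrf3 was at 24.2 and 20.5 TPM in suprabasal HB, 25.8 and 21 TPM in basal HB, 21.3 and 21.01 TPM in ORS, and 6.98, 5.37 and 6.59 TPM in HFSC. Rnf43 was at 33.5 and 30.5 TPM in suprabasal HB, 46.4 and 37.8 TPM in basal HB, 33.3 and 36.7 TPM in ORS, and 13.4, 12.1 and 15.2 TPM in HFSC. Every HFSC library was below the other 6, which lay between 20.5 and 25.8 TPM for Znrf3 and between 30.5 and 46.4 TPM for Rnf43. Relative to HFSC, Znrf3 was 3.31-fold higher in suprabasal HB (log2 fold change 1.73 ± 0.09, edgeR adjusted p = 1.56e-06), 2.83-fold higher in basal HB (1.503 ± 0.09, edgeR adjusted p = 6.81e-06) and 2.65-fold higher in ORS (1.41 ± 0.09, edgeR adjusted p = 2.67e-05). Rnf43 was 2.03-fold, 2.14-fold and 1.89-fold higher in suprabasal HB, basal HB and ORS than in HFSC (edgeR adjusted p of 5.53e-05, 5.37e-05 and 0.000233). All 6 calls were kept in all 18 alternatives. Among the 3 populations other than HFSC, neither gene differed past the threshold except Znrf3 in suprabasal HB against ORS (0.32 ± 0.09, edgeR adjusted p = 0.0339), a call lost in 10 of 18 alternatives, with an adjusted p of 0.785 on the TPM scale and of 0.0504 to 0.16 when HFSC replicate 3 or any ORS or suprabasal HB library was left out.

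The ligases and the receptors stood in a different proportion in each population. Znrf3 and Rnf43 together summed to 57.7 and 50.9 TPM in suprabasal HB, 72.2 and 58.8 TPM in basal HB, 54.6 and 57.7 TPM in ORS, and 20.4, 17.4 and 21.8 TPM in HFSC. The ratio of this sum to the summed LGR receptors was 1.23 and 1.34 in suprabasal HB, 0.980 and 0.697 in basal HB, 0.227 and 0.166 in ORS, and 0.0795, 0.0763 and 0.0888 in HFSC. No populations overlapped in this ratio, which compares RNA levels and is given as a description.

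RSEM also reports for each gene the average length of its transcripts, weighted by their estimated abundance, so a change in length reflects a change in the estimated mix of isoforms. For Rnf43 this length was 3379 to 3455 bases in suprabasal HB, 3193 to 3459 in basal HB, 3379 to 3389 in ORS and 3518 to 3750 in HFSC. The HFSC libraries did not overlap with the others, as was the case for 34.7% of the 12233 genes tested whose length differed between libraries. Rspo1 ranged from 1246 to 1834 bases over all libraries, with HFSC, at 1246 to 1513, overlapping ORS, at 1460 to 1643. Rspo2, Rspo3 and Rspo4 are each listed with 1 transcript, so their length could not vary between libraries. Lgr4, Lgr5, Lgr6 and Znrf3 varied by at most 1.05-fold.

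**Figure D4:**
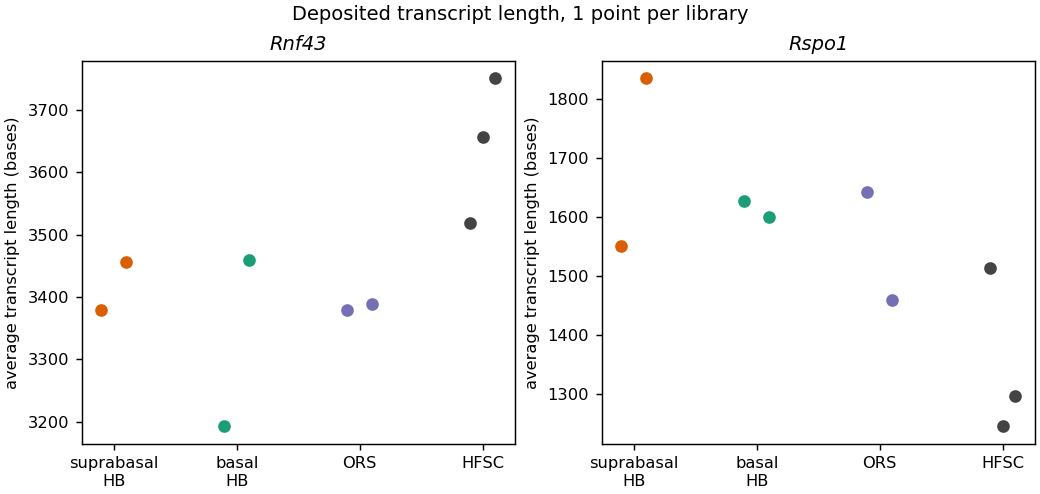
Average transcript length in bases, as deposited, of Rnf43 and Rspo1 in each library, with 1 point per library and axes that do not start at 0. Rnf43 is at 3518 to 3750 bases in HFSC and at 3193 to 3459 in the other populations.

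Counted over the 6 comparisons, the most members were called in basal HB against HFSC, with 6 higher and 2 lower, where 22.8% of all genes tested were higher and 26.1% lower (48.9% in either direction). In basal HB against ORS 4 members were higher and 3 lower, beside 15.8% and 14.7% of genes (30.5% in either direction). In suprabasal HB against basal HB no member was called higher by edgeR or by DESeq2 (Znrf3 alone was higher at an unadjusted edgeR value under 0.05) and 5 were lower, beside 13.1% and 14.8% of genes (27.9%), and the 5 are Lgr5 and the R-spondins. In ORS against HFSC 4 members were higher and 1 lower, beside 18.1% and 23.8% of genes (41.9%). In suprabasal HB against HFSC 2 were higher and 4 lower, beside 25.2% and 26.3% of genes (51.5%), and in suprabasal HB against ORS 1 was higher and 3 lower, beside 14.3% and 15.1% (29.4%). The libraries of both populations did not overlap in normalised CPM for 9 members in basal HB against HFSC (69.7% of all genes), for 8 in basal HB against ORS (67.4%), in suprabasal HB against basal HB (68.5%) and in ORS against HFSC (61.8%), for 7 in suprabasal HB against HFSC (67.3%) and for 5 in suprabasal HB against ORS (65.1%). These comparisons share libraries and are not independent of each other. On the TPM scale with a pseudocount of 1, the share of higher among all called genes was 68.5% rather than 43.2% in ORS against HFSC, 72.5% rather than 46.7% in basal HB against HFSC, 20.5% rather than 46.8% in suprabasal HB against basal HB, and 31.3% rather than 48.6% in suprabasal HB against ORS. Upper-quartile scaling gave 57.2% in basal HB against HFSC. Every member call named as kept above kept its direction on these scales.

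**Figure D5:**
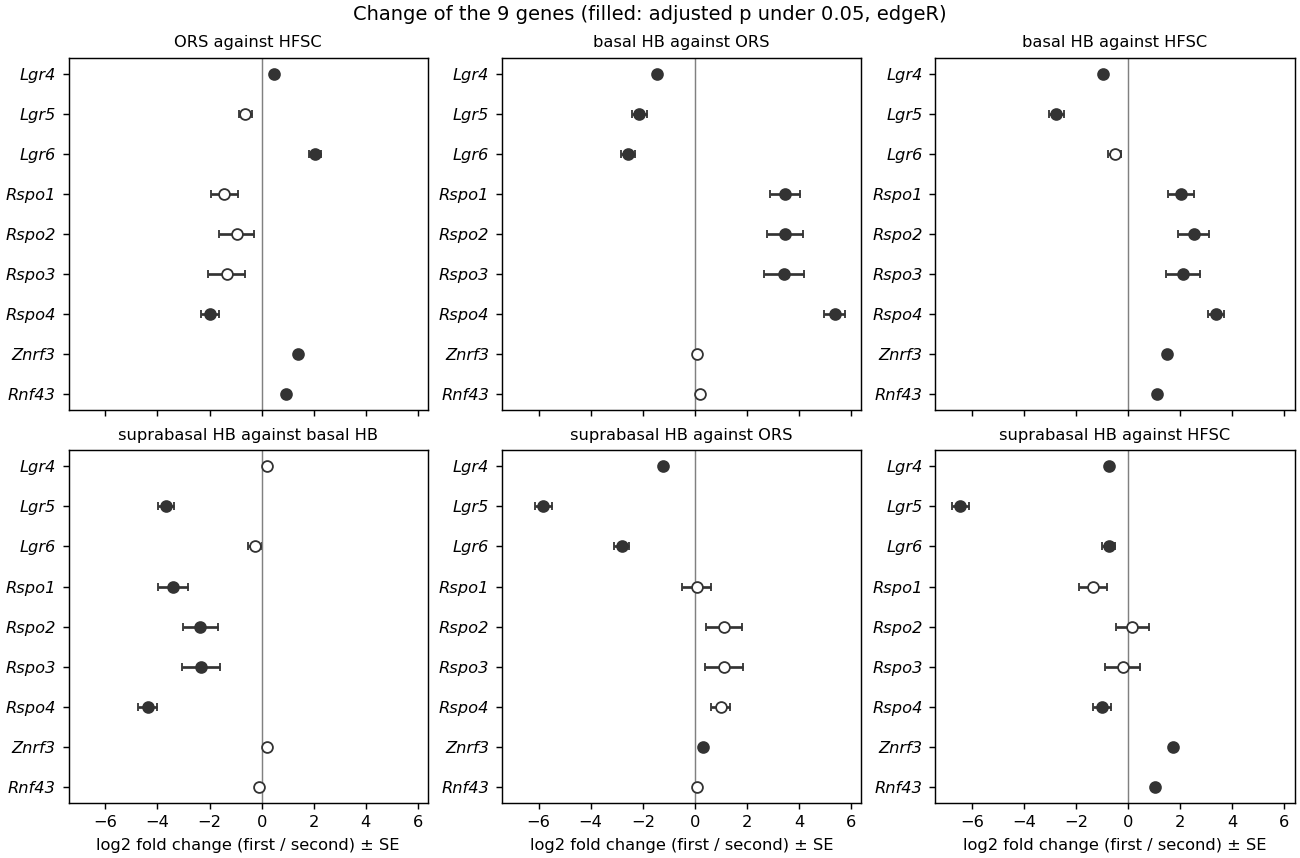
Log2 fold change (first population over second) with its SE for the 9 genes in the 6 comparisons. Filled points have an edgeR adjusted p under 0.05, and the vertical line marks no change. The R-spondins lie right of 0 in basal HB against ORS, between 3.44 and 5.37, and left of 0 in suprabasal HB against basal HB.

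Most WNT receptors were lower in the hair bulb populations than in HFSC. Of 12 Frizzled receptors and LRP co-receptors, 3 were called higher and 8 lower in basal HB than in HFSC (median log2 fold change -0.70), 2 higher and 9 lower in suprabasal HB than in HFSC (median -0.75), and 1 higher and 6 lower in basal HB than in ORS (median -0.35). The widest called difference of the list in suprabasal HB against ORS was in Fzd4, at 6.41 CPM in suprabasal HB, 30.1 in basal HB, 89.3 in ORS and 62.4 in HFSC, and 13.9-fold lower in suprabasal HB than in ORS (edgeR adjusted p = 1.93e-05). Fzd9 was called higher in suprabasal HB than in HFSC (edgeR adjusted p = 0.00758) at low levels, 0.22 to 0.49 TPM in suprabasal HB against 0 to 0.07 TPM in HFSC. Fzd1, a Frizzled receptor, was at 114 CPM in suprabasal HB, 199.5 in basal HB, 704 in ORS and 559.9 in HFSC, and Lrp6, the co-receptor that the ligases act on, at 133, 164, 308 and 294 CPM in the same order. Both were lower in basal HB than in ORS (edgeR adjusted p = 0.000429 for Fzd1 and 0.00154 for Lrp6). Fzd3 and Fzd10 went the other way. Fzd3 was at 8.76 CPM in suprabasal HB, 13.3 in basal HB, 3.30 in ORS and 6.63 in HFSC. It was 4.03-fold higher in basal HB than in ORS (edgeR adjusted p = 0.000312). Fzd10 was at 192, 143, 116 and 29.5 CPM in the same order. It was called higher in ORS, basal HB and suprabasal HB than in HFSC (edgeR adjusted p of 7.56e-05, 1.79e-05 and 4.24e-06). In ORS against HFSC the list had 1 higher and 3 lower, in suprabasal HB against basal HB 3 lower, and in suprabasal HB against ORS 3 higher and 6 lower. The shares of all genes called in each comparison are given above, beside the member counts.

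Most targets and feedback genes of WNT signalling were higher in the hair bulb populations than in HFSC. Of 14 listed, 13 were called higher in suprabasal HB than in HFSC (median log2 fold change 3.005), 12 higher and 1 lower in basal HB than in HFSC (median 2.95), and 6 higher in ORS than in HFSC (median 0.83). Axin2, a scaffold of the complex that degrades beta-catenin, was at 126 CPM in suprabasal HB, 123 in basal HB, 40.2 in ORS and 14.1 in HFSC, and Lef1, a transcription factor that binds beta-catenin, at 320, 254, 76.3 and 25.8 CPM in the same order. Axin2 was higher in basal HB than in ORS by 1.62 on the log2 scale (edgeR adjusted p = 0.000226), a comparison in which Znrf3 and Rnf43 did not differ past the threshold (0.10 ± 0.09 and 0.18 ± 0.11). Sp5, a zinc finger transcription factor, was at 4.94 CPM in suprabasal HB, 1.07 in basal HB, 0.414 in ORS and 0.149 in HFSC, and was 33.9-fold higher in suprabasal HB than in HFSC (edgeR adjusted p = 5.97e-05). Nkd1, an inhibitor of Dishevelled, was at 74.2, 38.5, 5.87 and 3.75 CPM in the same order, 19.9-fold higher in suprabasal HB than in HFSC (edgeR adjusted p = 2.44e-06). Notum, a secreted enzyme that inactivates WNT proteins, was higher in basal HB than in ORS by 3.41 (edgeR adjusted p = 0.000284) and lower in suprabasal HB than in basal HB by 1.04 (edgeR adjusted p = 0.0439). Over the list, basal HB against ORS had 10 higher and 2 lower, suprabasal HB against ORS 11 higher, and suprabasal HB against basal HB 5 higher and 2 lower. These counts, too, stand beside the shares of all genes called that are given with the member counts.

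Of 8 listed partners of LGR receptors and R-spondins, 3 were called higher and 1 lower in basal HB than in ORS, 2 higher and 3 lower in basal HB than in HFSC, 2 higher and 1 lower in suprabasal HB than in ORS, and 1 higher and 2 lower in suprabasal HB than in HFSC. In suprabasal HB against basal HB and in ORS against HFSC, 2 were lower. Over all genes tested, the share called in either direction was 30.5% in basal HB against ORS, 48.9% in basal HB against HFSC and 29.4% in suprabasal HB against ORS. It was 51.5% in suprabasal HB against HFSC, 27.9% in suprabasal HB against basal HB and 41.9% in ORS against HFSC. The same shares apply to the receptor and ligase lists below. Sdc4, a syndecan that binds R-spondins, was at 72.3 CPM in suprabasal HB, 122 in basal HB, 219 in ORS and 397 in HFSC, and suprabasal HB was 5.48-fold lower than HFSC (edgeR adjusted p = 1.36e-06). Gpc3, a glypican, was at 31.3 CPM in suprabasal HB, 35.7 in basal HB, 10.4 in ORS and 33.0 in HFSC, and was called lower in ORS than in HFSC (edgeR adjusted p = 0.00742). Ndp, which encodes norrin, a Frizzled ligand, was at 0.290, 2.47, 0.310 and 0.138 CPM in that order, and was higher in basal HB than in ORS (edgeR adjusted p = 0.0273). The hormone and relaxin receptors of the same receptor family were low: the 4 of 5 that passed the filter were at most 1.02 CPM in any population mean, Rxfp2 in basal HB, and Lhcgr reached 0.405 CPM there. Of these 4, Rxfp2 and Lhcgr were called higher in basal HB than in ORS, and Rxfp2, Lhcgr and Tshr lower in suprabasal HB than in basal HB. Against HFSC, Tshr and Lhcgr were higher and Rxfp1 lower in basal HB, Rxfp1 lower in ORS, and Rxfp1 and Rxfp2 lower in suprabasal HB. Of 9 other membrane RING ligases with a protease-associated domain, 6 passed the filter, and 3 were called higher and 3 lower in basal HB than in HFSC, 2 higher and 3 lower in suprabasal HB than in HFSC, and 1 higher and 4 lower in ORS than in HFSC. Basal HB against ORS had 4 higher and 1 lower, suprabasal HB against ORS 3 and 1, and suprabasal HB against basal HB 2 and 2. Rnf128 was at 6.53 CPM in suprabasal HB, 2.03 in basal HB, 0.459 in ORS and 0.320 in HFSC, 19.7-fold higher in suprabasal HB than in HFSC (edgeR adjusted p = 5.37e-05). Rnf150 was at 1.69, 9.14, 2.47 and 4.57 CPM in the same order, 5.42-fold lower in suprabasal HB than in basal HB (edgeR adjusted p = 0.000123). Like Znrf3 and Rnf43, Rnf149 had its lowest level in HFSC, at 182 CPM in suprabasal HB, 242 in basal HB, 99.5 in ORS and 77.1 in HFSC, while Rnf130 was highest in HFSC, at 35.7, 29.0, 49.3 and 98.1 CPM in the same order.

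The genes whose log2 CPM tracked a member most closely over the 9 libraries are given as a description, since the 9 libraries come from 4 populations. For Lgr5 they were Ret (Pearson r = 0.9987), Dapk2 (0.9981) and Lrrn2 (0.9978). For Lgr6 they were Cux1 (r = 0.9949), Dlx1 (0.9892) and Sin3a (0.9768), and for Lgr4 Meaf6 (0.9923), Ninl (0.9876) and Cdca7l (0.985). The R-spondins had Tmem132e, Colec12 and Cacng7 (r of 0.9833 to 0.9864) for Rspo1, Itih5, Fyco1 and Edn3 (0.9804 to 0.9822) for Rspo2, Rarres1, Kank4 and Lepr (0.9713 to 0.985) for Rspo3, and Fscn1, Masp1 and Sec23a (0.9837 to 0.9911) for Rspo4. The ligases had RP23-366P9.8, Mars2 and A230060F14Rik (0.9943 to 0.9962) for Znrf3, and Ints3, Gm27920 and Cecr2 (0.9921 to 0.9957) for Rnf43.

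All 9 members are protein coding in GENCODE M21 on mm10. Lgr4 lies at chr2:109917647-110014257, Lgr5 at chr10:115450311-115587780, Lgr6 at chr1:134983301-135105276, Rspo1 at chr4:124986430-125009099, Rspo2 at chr15:43020794-43170826, Rspo3 at chr10:29452416-29535867, Rspo4 at chr2:151842927-151874668, Znrf3 at chr11:5276324-5444847 and Rnf43 at chr11:87662722-87735539. The counting strand is not stated, so reads of a gene and of one that overlaps it on the opposite strand cannot be told apart. Such a gene overlapped Lgr5 (A930009A15Rik, at most 2.87 TPM), Rspo1 (Gm12930, 0.26), Rspo4 (Rspo4os, 0.26) and Rnf43 (Gm25968, 0.63), and 1110028F11Rik, at most 2.64 TPM, overlapped Rnf43 on the same strand. Gm48159, on the opposite strand, and Gm20276, on the same strand, overlap Rspo3 but are not among the gene rows, so their levels are not known. A930009A15Rik itself was at 0.03 and 0 TPM in suprabasal HB and at 1.44 to 2.87 TPM in HFSC, far below Lgr5 in the same libraries.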

How the data were processed

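RNA-seq tables of 9 libraries were used. The expected counts are RSEM's estimated read counts per gene, not scaled for depth, as deposited by the authors. The deposited tables also give TPM, scaled by the authors per effective length and library, and an abundance-weighted transcript length in bases (another unit, as deposited). Per the submitters' processing notes, Bowtie2 2.2.9, RSEM 1.2.30 and mm10 were used, and the counting strand and the parameters are not given in the sources used here. The 9 FPKM columns, and the 9 columns of the authors' deposited series-wide TPM table, of which 3 names match no sample, were not used. The 92 spike-in rows are at 0 and were left out.

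Expected counts were rounded and fitted with edgeR 4.0.16 (R 4.3.3): filterByExpr with a minimum count of 10 (20491 genes), TMM scaling (factors 0.9 to 1.127), and a quasi-likelihood model over all libraries, with a mean for each of the 4 populations (5 residual degrees of freedom). F-tests were 2-sided and adjusted by Benjamini and Hochberg over all genes tested, with a threshold of 0.05. The SE was taken as the absolute log2 fold change over the root of F. Alternatives were DESeq2 1.42.0, limma 3.58.1 on log2(TPM + 1) and log2(TPM + 0.1), other scalings and filters, a replicate block and each library left out.

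All 9 members are described, with up to 4 called genes of largest change in a comparison from each pathway list, all of a list of 5 or fewer, and the 3 genes of highest correlation (log2 CPM, prior count 2). Lrp6 was outside this rule and was chosen after its values were seen, as the co-receptor on which the ligases act. Members and lists were chosen with earlier results of these data known. Replicate ratios of marker genes use genes with at least 10 counts in both libraries. Shares, ratios and floors rest on reads without molecular identifiers. RefSeq promoter entries matched Lgr4, Lgr6, Rspo1, Rspo4 and Rnf43.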

Additional observations from a re-analysis of the deposited data

How the results depend on the processing

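The 18 alternatives were other scalings, filters and tools, a fit of the 2 populations compared alone, a replicate block and 9 fits that each left out 1 library, where a lone remaining library is assumed to vary like the other populations. Over all members and comparisons, 894 values kept direction and side of the threshold, 42 lost a call, 20 gained one and 16 changed sign, and no called difference changed sign. With each library left out in turn, the number of genes called ranged from 3425 to 6252 for basal HB over ORS (6245 with all), 6422 to 10152 in basal HB against HFSC (10026), 2729 to 5870 in suprabasal HB against basal HB (5721) and 3823 to 6296 in suprabasal HB against ORS (6021). The lowest counts were without basal HB replicate 1 in the 3 comparisons with basal HB and without ORS replicate 2 in suprabasal HB against ORS, where fewer samples were fitted. Without basal HB replicate 2, 3043 genes were called for suprabasal HB over basal HB and 4043 for basal HB over ORS, and without suprabasal HB replicate 2 suprabasal HB against basal HB had 3539. Members called ranged from 5 to 7 in ORS against HFSC (5 with all), 6 to 7 for basal HB over ORS (7), 5 to 8 in basal HB against HFSC (8), 3 to 5 in suprabasal HB against basal HB (5), 3 to 6 in suprabasal HB against ORS (4) and 4 to 7 in suprabasal HB against HFSC (6). The 5 in basal HB against HFSC was without basal HB replicate 1, and the 3 in suprabasal HB against basal HB with either basal HB library or suprabasal HB replicate 2 left out.

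Sign changes were in log2 fold changes that were not called, and the cause was not tested. On TPM with pseudocounts of 1 and 0.1, suprabasal HB against basal HB was -0.079 and -0.081 for Lgr4 and -0.063 and -0.066 for Znrf3, and suprabasal HB against ORS was -0.045 and -0.010 for Rspo1 and -0.13 and -0.13 for Rnf43. With each library left out in turn, Lgr6 ranged from -0.63 to 0.031 in suprabasal HB against basal HB, highest without suprabasal HB replicate 2. In suprabasal HB against ORS, Rspo1 ranged from -0.62 (without ORS replicate 2) to 1.37 and was -0.22 without suprabasal HB replicate 1, and Rspo2 ranged from -0.065 (without suprabasal HB replicate 1) to 2.27. In suprabasal HB against HFSC, Rspo2 ranged from -1.02 (without suprabasal HB replicate 1) to 0.89 and was -0.01 without HFSC replicate 1, and Rspo3 ranged from -1.10 to 0.42 (without suprabasal HB replicate 2) and was 0.22 without HFSC replicate 2. Calls that only an alternative made include Rspo1 lower in ORS than in HFSC without ORS replicate 1 (adjusted p = 0.00255).

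The labels do not pair samples by replicate number, and same-numbered libraries correlated between -0.105 and 0.121 in their deviations. The replicate block gave 7386 genes called in ORS against HFSC, 5875 for basal HB over ORS, 8964 in basal HB against HFSC, 5214 for suprabasal HB over basal HB, 5512 for suprabasal HB over ORS and 9518 for suprabasal HB over HFSC. With the block, Rspo1 was called in ORS against HFSC (adjusted p = 0.0471), and Rspo3 in basal HB against HFSC (0.0753) and Lgr6 in suprabasal HB against HFSC (0.123) were not. On TPM with a pseudocount of 1 the median over all genes moved by 0.17 in ORS against HFSC, 0.22 in basal HB against HFSC, -0.16 in suprabasal HB against basal HB and -0.12 in suprabasal HB against ORS.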
